A study of Homo sapiens with 3 samples.

Results

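The genes described here are 9 direct targets of the transcription factor p53 (CDKN1A, MDM2, GDF15, FAS, TP53I3, ZMAT3, FDXR, TNFRSF10B and BTG2), taken by symbol from the 60554 genes of the deposited count table. All 9 matched 1 row each, and all 9 were among the 17801 genes that passed the filter on low counts. RNA was sequenced in KYSE30, an established line of esophageal squamous cell carcinoma, carrying an shRNA against SNORD12B or a control construct. SNORD12B is a box C/D small nucleolar RNA, a class that guides methylation of ribosomal RNA. There were 2 lines labelled as knockdowns, each with its own shRNA, and 1 control line, with 1 library per line. All 3 lines had been exposed to virus for 24 hours, kept under 5 ug/mL blasticidin for 2 weeks and grown with 10% serum. The control is labelled a vector under genotype, whereas the protocol speaks of a scrambled shRNA with no target. The labels do not say whether a line is a pool or 1 clone.

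p53 is held low in resting cells by the ubiquitin ligase MDM2. When ribosome assembly is disturbed, the ribosomal proteins RPL5 and RPL11 are known to bind MDM2 together with 5S ribosomal RNA, which lets p53 protein accumulate and switch on its targets. The 9 genes were therefore read across the 3 libraries as a check for such nucleolar stress. p53 is controlled mainly as a protein, and counts per gene do not show the amount of p53 protein, which was not analysed here.

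The DNA sites through which p53 acts are known for several of these genes. RefSeq promoter windows (GRCh38.p14, 250 bases before to 50 after an annotated start) were available for 8 of the 9 genes, in 15 windows. They were searched for the p53 consensus, a palindrome of 2 half-sites of 10 bases with no spacer, so that a single scan covers both strands. Both half-site cores (C at position 4 and G at position 7 of each) had to be intact. The 4 genes with a match of at most 3 mismatches are printed here, since these are the stretches that resemble a p53 site most. Capitals mark bases that match the consensus and lower case marks mismatches.
MDM2: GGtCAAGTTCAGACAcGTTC
FAS: GGACAAGCCCtGACAAGCCa
GDF15: AGcCATGCCCGGGCAAGaaC
FDXR: GGGCAgGagCGGGCTTGCCC

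The MDM2 match (chr12:68808923-68808942, plus strand) lay 94 bases upstream of an internal start of the gene and had 2 mismatches. The FAS match (chr10:88991309-88991328, plus strand) also had 2, and lay 122 bases upstream of an alternative start. Of all 35116 windows, 0.285% held a match this good. The GDF15 match (chr19:18386186-18386205, plus strand) and the FDXR match (chr17:74872996-74873015, minus strand) had 3 mismatches each, a level reached in 1.12% of windows. In CDKN1A, ZMAT3, TP53I3 and BTG2 the best match in these windows had 4 to 10 mismatches, which says nothing of sites outside the windows or of p53 binding.

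Total counts were 15146805 (library labelled shRNA 1), 17336936 (library labelled shRNA 2) and 15473922 (control). SNORD12B itself was counted 15 times with the label shRNA 1, 1 time with the label shRNA 2 and 7 times in the control. The ratio of SNORD12B to the control was 2.16 (exact 95% interval 0.831 to 6.28) with the label shRNA 1, an interval that holds 1. With the label shRNA 2 it was 0.126 (0.0028 to 0.982). The counts of the library labelled shRNA 1 thus do not show the fall that its label implies, though so few reads do not settle its direction. SNORD12B spans 91 bases within ZFAS1, a gene on the same strand that is named here for its position. ZFAS1 stood at 14.2 CPM (label shRNA 1) and 9.49 CPM (label shRNA 2), against 12.1 CPM in the control. Whether the reads on SNORD12B come from the small nucleolar RNA itself was not tested. Each direction below rests on libraries whose knockdown is not verified by the SNORD12B counts. Epithelial keratins were abundant, with KRT8 at 4335 CPM (label shRNA 1), 4340 CPM (label shRNA 2) and 4366 CPM (control), where CPM are counts scaled to a common library size with TMM factors. The squamous keratin KRT5 had at most 3 counts. The 9 epithelial markers summed to 8137 CPM (label shRNA 1) and 9974 CPM (label shRNA 2), against 9157 CPM in the control. Of the 8 that passed the filter, 5 lay below the control with both labels and 1, KRT18, above it with both, beside 27% and 28.2% of all genes tested. Of these 5, KRT8 was within counting error of the control with both labels (ratios 0.993 and 0.994). EPCAM, also of the 5, was within counting error of it with the label shRNA 1 only. KRT19 stood at 1309 CPM (label shRNA 1) and 2793 CPM (label shRNA 2), against 1928 CPM in the control. The markers with the largest absolute log2 fold change were SOX2 and KRT17, both below the control. SOX2 stood at 12.2 CPM (label shRNA 1) and 38.9 CPM (label shRNA 2), against 104.1 CPM in the control, and KRT17 at 15.5 CPM (label shRNA 1) and 53 CPM (label shRNA 2), against 94.6 CPM in the control. Of 10 markers of fibroblasts, leukocytes and endothelium, COL1A2, DCN and LUM had 0 counts in every library, and 4, 6 and 4 of the 10 had a count in the libraries labelled shRNA 1, labelled shRNA 2 and control. The sum over the 10 was 10.4 CPM (label shRNA 1), 19.3 CPM (label shRNA 2) and 19.9 CPM (control), most of it COL1A1. The part of these markers in the levels of the p53 targets was not tested.

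The 9 p53 targets did not move together. With both labels TP53I3 and ZMAT3 lay above the control, and FAS and TNFRSF10B lay below it. The other 5 genes, CDKN1A, MDM2, GDF15, FDXR and BTG2, lay below the control with the label shRNA 1 and above it with the label shRNA 2. Thus 2 of 9 targets lay above the control with both labels and 2 of 9 below it with both. Over all genes tested these shares were 28.2% and 27%. A further 21.5% of genes were below with shRNA 1 and above with shRNA 2, like the 5 targets named. The reverse pattern held for 23.3% of genes and 0 of the 9. Of those 5 targets, only CDKN1A and GDF15 differed from the control by more than counting error with both labels. With the label shRNA 1, 2 targets were higher and 7 lower, beside 51.5% and 48.5% of genes, and with the label shRNA 2, 7 were higher and 2 lower, beside 49.7% and 50.3%. Both ratios use the same control library. In edgeR's quasi-likelihood test of the pair against the control, 0 of the 9 passed an adjusted p under 0.05, and 0 had an unadjusted p under 0.05. Over all genes tested 0% were called higher and 0% lower, with 73 higher and 164 lower at an unadjusted p under 0.05. DESeq2, limma-voom and edgeR's likelihood ratio test also called 0 of the 9. Replicate spread comes from the pair of shRNA lines alone, with 1 residual degree of freedom per gene. The test moderates it with the spread over all genes tested (8.35 prior degrees of freedom). A missed threshold therefore does not show that a gene was unaffected.

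**Figure D1:**
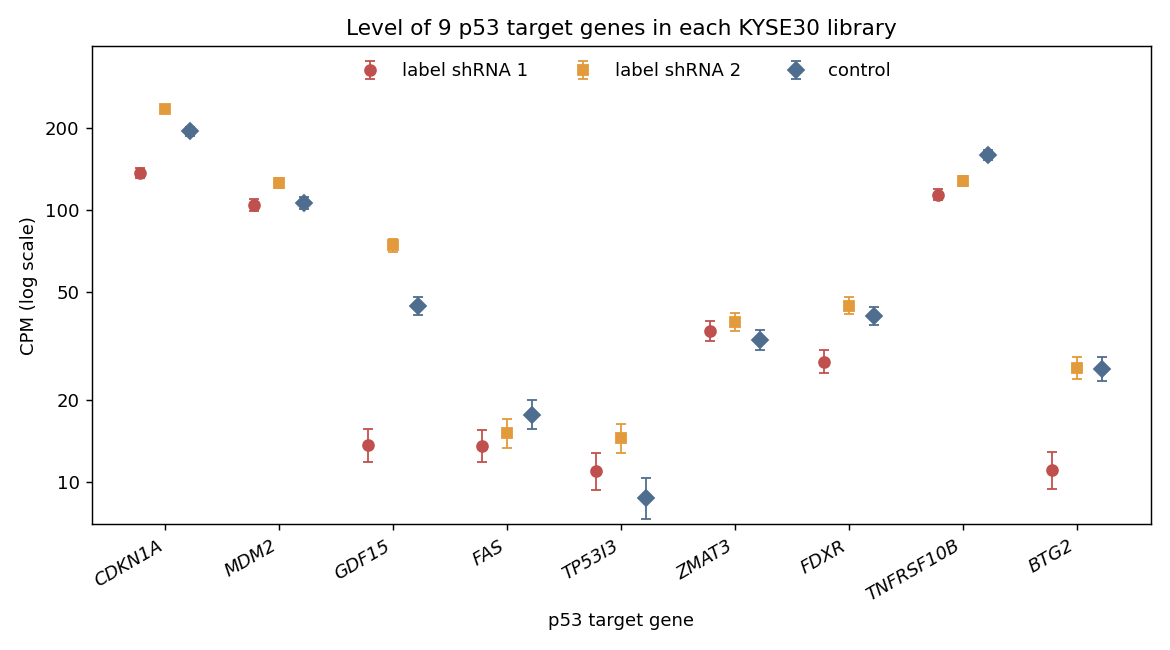
Level of each p53 target (CPM, log axis) for the label shRNA 1 (circles), the label shRNA 2 (squares) and the control (diamonds), 1 library each. Bars are exact Poisson intervals at 95%, which cover counting error only. GDF15 spans 13.7 to 74.2 CPM, whereas ZMAT3 spans 33.3 to 38.8 CPM.

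CDKN1A encodes p21, the inhibitor of cyclin-dependent kinases by which p53 arrests the cell cycle. CDKN1A (ENSG00000124762.13, chromosome 6, 36676460 to 36687339, plus strand of hg38) stood at 136 CPM (label shRNA 1) and 235 CPM (label shRNA 2), against 194 CPM in the control. The control thus lay between the shRNA libraries. The ratio to the control was 0.703 (exact interval 0.664 to 0.744) for the label shRNA 1 and 1.21 (1.15 to 1.27) for the label shRNA 2, so that both differ from 1 by more than counting error and in opposite directions. The pair averaged 186 ± 69.6 CPM (SD, n = 2), and the log2 fold change of the pair to the control was -0.06 (SE 0.37, edgeR, adjusted p = 1). Among 7487 other genes with a symbol and at least 20 CPM in each library, those with log2 ratios to the control nearest to CDKN1A were METTL25B, PPL and DCAF11. The Euclidean distance over the 2 ratios was 0.00832 to 0.0173, and PPL, which encodes periplakin of the cornified envelope, stood at 270 CPM (label shRNA 1) and 463 CPM (label shRNA 2), against 385 CPM in the control. With only 3 libraries such likeness is a description, and no shared function follows from it.

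BTG2 (ENSG00000159388.5, chromosome 1, 203305491 to 203309602, plus strand) encodes an antiproliferative protein of the BTG/TOB family. It stood at 11 CPM with the label shRNA 1 and 26.3 CPM with the label shRNA 2, against 26.1 CPM in the control. The library labelled shRNA 1 alone was low. Its ratio to the control was 0.423 (0.351 to 0.508), while that of the library labelled shRNA 2 was 1.01 (0.878 to 1.15). The log2 fold change of the pair was -0.48 (SE 0.49, adjusted p = 1 by edgeR).

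MDM2 is both a target of p53 and its main inhibitor, and its internal promoter is the one through which p53 is known to drive it. MDM2 (ENSG00000135679.21, chromosome 12, 68808172 to 68850686, plus strand) stood at 104 CPM with the label shRNA 1 and 126 CPM with the label shRNA 2, against 106 CPM in the control. The library labelled shRNA 1 was within counting error of the control, with a ratio of 0.985 (0.918 to 1.06), and the library labelled shRNA 2 was slightly above it, with 1.19 (1.11 to 1.27). The log2 fold change of the pair was 0.12 (SE 0.32). Exons of other genes on the opposite strand cover 6.92% of the exonic bases of MDM2, so a small part of its count is uncertain if strands were not separated.

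FAS and TNFRSF10B encode death receptors, for FAS ligand and for TRAIL, and both were lowest with the label shRNA 1 and highest in the control. TNFRSF10B (ENSG00000120889.12, chromosome 8, 23020133 to 23069179, minus strand) stood at 114 CPM (label shRNA 1) and 128 CPM (label shRNA 2), against 159 CPM in the control. Its ratios to the control were 0.716 (0.672 to 0.761) for the label shRNA 1 and 0.807 (0.761 to 0.855) for the label shRNA 2, the only member for which both intervals lay below 1. FAS (ENSG00000026103.19, chromosome 10, 88990531 to 89015785, plus strand) stood at 13.6 CPM (label shRNA 1) and 15.1 CPM (label shRNA 2), against 17.7 CPM in the control. For FAS only the interval of the library labelled shRNA 1 excluded 1 (ratio 0.769, 0.638 to 0.924). Log2 fold changes of the pair were -0.39 (SE 0.30) for TNFRSF10B and -0.30 (SE 0.38) for FAS, with adjusted p = 1 by edgeR for each. Each of these directions rests in part on the library labelled shRNA 1, whose SNORD12B count was above that of the control, though within counting error. Opposite-strand exons, of ACTA2, cover 11.7% of the exonic bases of FAS.

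TP53I3, a quinone oxidoreductase also known as PIG3, was the target with the highest log2 fold change of the pair. TP53I3 (ENSG00000115129.13, chromosome 2, 24077433 to 24085861, minus strand) stood at 11 CPM with the label shRNA 1 and 14.5 CPM with the label shRNA 2, against 8.72 CPM in the control. Both shRNA libraries were above the control, with ratios of 1.26 (0.997 to 1.59) for the label shRNA 1, whose interval holds 1, and 1.66 (1.34 to 2.06) for the label shRNA 2. The log2 fold change of the pair was 0.55 (SE 0.43, adjusted p = 1 by edgeR). These values rest on 167 (label shRNA 1), 252 (label shRNA 2) and 134 counts (control).

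FDXR (ENSG00000161513.11, chromosome 17, 74862497 to 74873031, minus strand) encodes the mitochondrial ferredoxin reductase, which passes on electrons from NADPH. It stood at 27.7 CPM with the label shRNA 1 and 44.4 CPM with the label shRNA 2, against 40.8 CPM in the control. As for BTG2, the library labelled shRNA 1 was low and the library labelled shRNA 2 was within counting error of the control. The ratios were 0.678 (0.598 to 0.769) for the label shRNA 1 and 1.09 (0.979 to 1.21) for the label shRNA 2. ZMAT3 (ENSG00000172667.10, chromosome 3, 179017223 to 179072279, minus strand), which encodes a zinc finger protein that binds RNA, varied least, with 35.8 CPM (label shRNA 1), 38.8 CPM (label shRNA 2) and 33.3 CPM (control). Its ratios to the control were 1.08 (0.953 to 1.22) for the label shRNA 1 and 1.17 (1.04 to 1.31) for the label shRNA 2. Log2 fold changes of the pair were -0.18 (SE 0.39) for FDXR and 0.17 (SE 0.35) for ZMAT3.

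GDF15, a secreted stress cytokine of the TGF-beta superfamily, varied most. GDF15 (ENSG00000130513.6, chromosome 19, 18374731 to 18389176, plus strand of hg38) stood at 13.7 CPM with the label shRNA 1 and 74.2 CPM with the label shRNA 2, against 44.5 CPM in the control. The counts behind these levels were 208 (label shRNA 1), 1290 (label shRNA 2) and 683 (control). The library labelled shRNA 1 was thus the lowest and the library labelled shRNA 2 the highest. Relative to the control the ratio was 0.308 (0.262 to 0.36) with the label shRNA 1 and 1.67 (1.52 to 1.83) with the label shRNA 2. Of all genes tested, only 1.67% had a lower log2 ratio than GDF15 with the label shRNA 1, and 5.98% had a higher one with the label shRNA 2. The pair averaged 43.9 ± 42.8 CPM (SD, n = 2), with a log2 fold change of -0.02 (SE 0.73) by edgeR. By limma-voom, which averages on the log scale, it was -0.45, so the size depends on the scale of averaging.

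**Figure D2:**
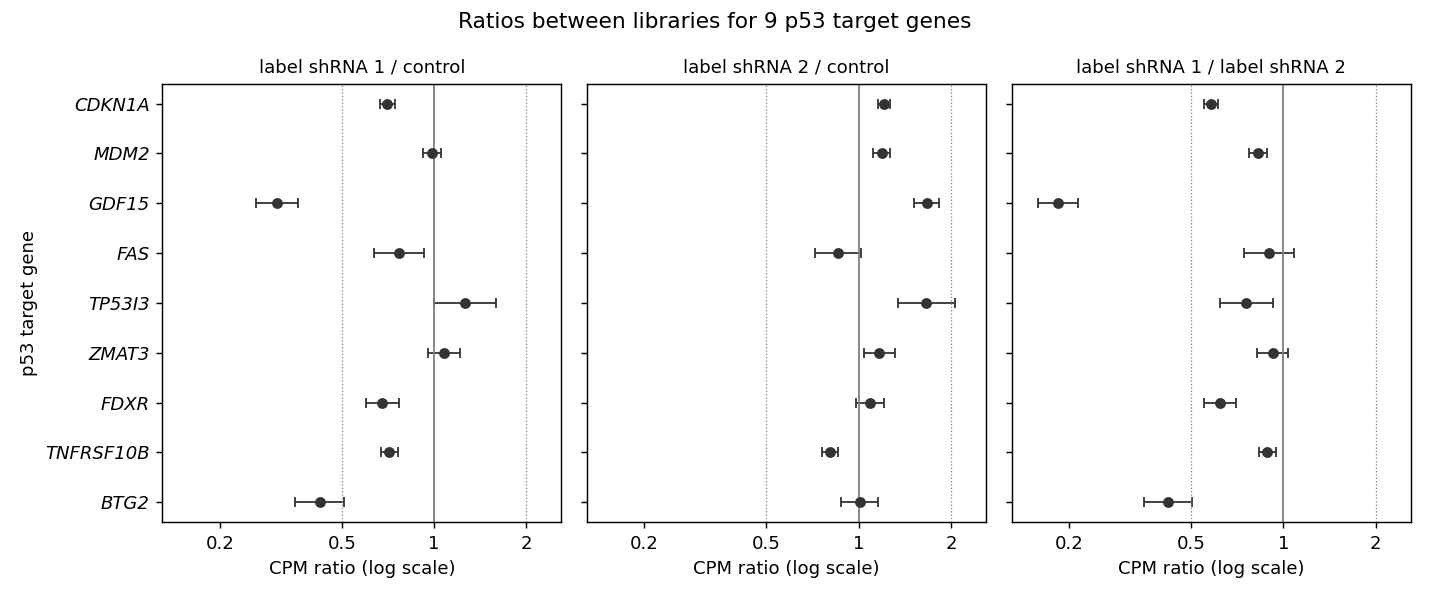
CPM ratios of the 9 targets (points, log axis) with exact conditional intervals at 95% for counting error only, for the library labelled shRNA 1 over the control (left), the library labelled shRNA 2 over the control (middle) and the library labelled shRNA 1 over that labelled shRNA 2 (right). Solid lines mark 1 and dotted lines mark 2-fold. All 9 points in the right panel lie below 1, with GDF15 farthest at 0.184.

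In size, 2 of the 9 targets, GDF15 and BTG2, were at least 2-fold below the control with the label shRNA 1, where 5.58% of all genes tested were. None of the 9 was at least 2-fold above it with that label, against 3.74% of genes. With the label shRNA 2 no target reached 2-fold either way, where 2.98% of genes did so upwards and 3.46% downwards. Nor did any target lie at least 2-fold above the control with both labels, or below it with both, as did 0.977% and 1.19% of genes. At 1.5-fold the label shRNA 1 gave the same pair of targets lower and 0 higher, beside 12.7% and 10.8% of genes. At 1.5-fold the label shRNA 2 gave GDF15 and TP53I3 higher and 0 lower, beside 9.38% and 9.92% of genes. The median log2 ratio of the 9 was -0.48 with the label shRNA 1 and 0.22 with the label shRNA 2, beside 0.01 and 0.00 over all genes tested. Count-ratio intervals lay below 1 for 6 targets and above 1 for 0 with the label shRNA 1, and below 1 for 1 and above 1 for 5 with the label shRNA 2. Over all genes tested, 24.1% had an interval below 1 and 25.6% one above 1 with the label shRNA 1, and 24.2% and 23.3% did with the label shRNA 2. In a bulk library, fewer cells with a transcript and less of it per cell cannot be told apart.

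**Figure D3:**
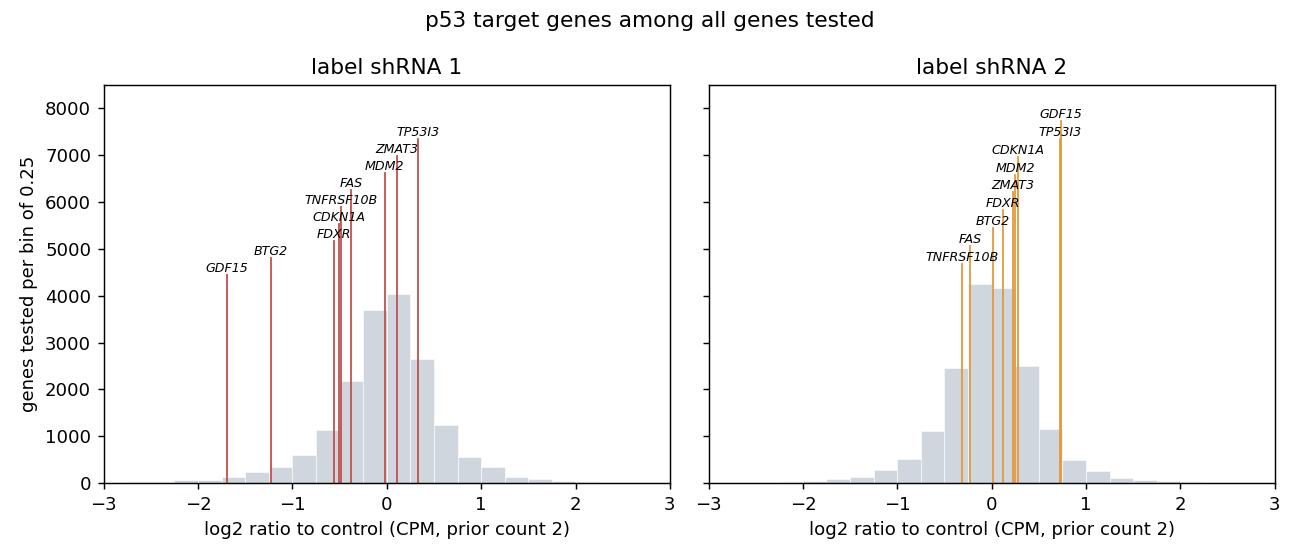
Number of the 17801 genes tested per bin of log2 ratio to the control (grey bars; the axis shows -3 to 3) in the libraries labelled shRNA 1 (left) and shRNA 2 (right), with the 9 p53 targets as vertical lines. The height of a line only makes room for its name. GDF15 lies at -1.69 on the left and 0.74 on the right.

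Set against each other without the control, the shRNA libraries differed in 1 direction for every target. All 9 were lower with the label shRNA 1 than with the label shRNA 2, where 49.9% of all genes tested were. For 7 of the 9 the interval of the ratio lay below 1, the exceptions being FAS (0.9, 0.747 to 1.08) and ZMAT3 (0.923, 0.823 to 1.04). This was so for 28.1% of all genes tested, and 28.4% had an interval above 1, which 0 of the 9 had. The ratio was 0.184 (0.159 to 0.214) for GDF15, 0.42 (0.35 to 0.503) for BTG2, 0.581 (0.551 to 0.612) for CDKN1A and 0.623 (0.552 to 0.702) for FDXR. GDF15 and BTG2 were thus at least 2-fold lower with the label shRNA 1 than with the label shRNA 2, as were 6.61% of genes. At 1.5-fold CDKN1A and FDXR joined them, making 4 of 9 beside 15.8% of genes. None of the 9 was 2-fold or 1.5-fold higher with the label shRNA 1 than with the label shRNA 2, as were 5.54% and 14.8% of genes. Each side is 1 library, so these ratios compare libraries and have no replicate check.

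Per length of exon, CDKN1A was the most abundant target in each library, at 44.7, 77 and 63.6 CPM per kilobase with the labels shRNA 1 and shRNA 2 and in the control. TNFRSF10B came next with the label shRNA 1 and in the control, at 22 and 30.8 CPM per kilobase, but GDF15, at 35.5 CPM per kilobase, took that place with the label shRNA 2. FDXR, BTG2 and MDM2 followed at 7.98 to 11.3 CPM per kilobase in the control. Their order was not the same in all libraries, since MDM2 stood above FDXR, GDF15 and BTG2 with the label shRNA 1. FAS, TP53I3 and ZMAT3 were lowest in the control, at 3.45 to 4.8 CPM per kilobase, and also exchanged places between libraries.

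The paralogs TP63 and TP73 were both below the control with both labels. TP63, the p53 relative that specifies squamous epithelium and can bind p53 sites, stood at 80.6 CPM (label shRNA 1) and 135 CPM (label shRNA 2), against 156.6 CPM in the control, and was thus low mainly with the label shRNA 1. TP73 stood at 9.14 CPM (label shRNA 1) and 7.70 CPM (label shRNA 2), against 12.8 CPM in the control. Log2 fold changes of the pair were -0.54 (SE 0.36) for TP63 and -0.60 (SE 0.41) for TP73, and neither passed, with adjusted p = 1 by edgeR for each.

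A further 41 p53 targets, of which 40 matched a row and 38 passed the filter, did not move together either. Of the 38, 5 were above the control with both labels and 12 below it with both, and 0 passed in either direction by edgeR. Over all genes tested 28.2% lay above and 27% below with both labels, the shares to set also beside each list below. The 38 had median log2 ratios of -0.12 with the label shRNA 1 and -0.04 with the label shRNA 2. Set against each other, 21 of the 38 were lower and 17 higher with the label shRNA 1 than with the label shRNA 2 (median difference -0.03 on the log2 scale). Over all genes tested these shares were 49.9% and 50.1%, whereas all of the 9 were lower. EDA2R and SPATA18 had 0 counts in every library, and 3 counts, taken as the limit that a count of 0 allows, would be 0.195 CPM in the control. None of the lists was chosen without knowledge of these data, so their counts are descriptions.

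Of 12 targets in growth arrest and feedback, 1 was above the control with both labels and 2 below. The 4 with the largest absolute log2 fold change were NINJ1, PLK2, BTG1 and SESN2. PLK2, a polo-like kinase, stood at 349.7 CPM (label shRNA 1) and 211 CPM (label shRNA 2), against 207 CPM in the control, and BTG1, a relative of BTG2, at 143.5 CPM (label shRNA 1) and 241 CPM (label shRNA 2), against 149 CPM in the control. Each was high with a different label. NINJ1, an adhesion protein of nerve injury, stood at 21.8 CPM (label shRNA 1) and 28.3 CPM (label shRNA 2), against 36.3 CPM in the control, and SESN2, a stress-induced sestrin that ATF4 also drives, at 22.1 CPM (label shRNA 1) and 40.7 CPM (label shRNA 2), against 37.6 CPM in the control. TP53INP1, singled out after its values were seen as the 1 gene of this group at least 2-fold apart, stood at 9.73 CPM (label shRNA 1) and 26.7 CPM (label shRNA 2), against 21.5 CPM in the control.

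Of 12 measured targets in apoptosis, 1 was above the control with both labels and 4 below. PERP, a desmosomal tetraspan protein that p63 also drives, stood at 372 CPM (label shRNA 1) and 610 CPM (label shRNA 2), against 751 CPM in the control. TNFRSF10D, a decoy receptor for TRAIL, stood at 54.9 CPM (label shRNA 1) and 47.2 CPM (label shRNA 2), against 74.3 CPM in the control, and APAF1, the core of the apoptosome, at 32.7 CPM (label shRNA 1) and 33.5 CPM (label shRNA 2), against 41.7 CPM in the control. TNFRSF10C had 3 (label shRNA 1), 19 (label shRNA 2) and 12 counts (control), too few for a firm ratio. BBC3, which encodes the BH3-only protein PUMA and was named after its values were seen, had the same order of libraries as GDF15, with 13.2 CPM (label shRNA 1) and 38.6 CPM (label shRNA 2), against 24.4 CPM in the control.

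Among 7 DNA repair and nucleotide genes, 3 were above the control with both labels and 3 below. REV3L, the catalytic subunit of DNA polymerase zeta, stood at 55.2 CPM (label shRNA 1) and 49.2 CPM (label shRNA 2), against 31.6 CPM in the control, with a log2 fold change of 0.72 (SE 0.35) that did not pass by edgeR. RRM2B, a p53-inducible ribonucleotide reductase subunit, stood at 27 CPM (label shRNA 1) and 31.5 CPM (label shRNA 2), against 24.3 CPM in the control, and DDB2, a sensor of ultraviolet damage, at 53.3 CPM (label shRNA 1) and 55 CPM (label shRNA 2), against 64.6 CPM in the control. Of 7 measured metabolic targets, 0 were above the control with both labels and 3 below. TIGAR, a fructose bisphosphatase, stood at 31.5 CPM with the label shRNA 1 and 18.2 CPM with the label shRNA 2, against 18.7 CPM in the control. ACER2, an alkaline ceramidase, stood at 2.96 CPM (label shRNA 1) and 6.67 CPM (label shRNA 2), against 3.84 CPM in the control, and ALDH4A1, a mitochondrial enzyme of proline breakdown, at 4.01 CPM (label shRNA 1) and 5 CPM (label shRNA 2), against 5.92 CPM in the control.

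Proteins that act on p53 were not called either, with 2 of 13 above the control with both labels, 2 below. The median of their log2 ratios was 0.00 with the label shRNA 1 and -0.01 with the label shRNA 2. CHEK2, a checkpoint kinase that phosphorylates p53, had the largest log2 fold change at -0.69 (SE 0.34), which did not pass (adjusted p = 1 by edgeR). Its level was 38.1 CPM (label shRNA 1) and 49.3 CPM (label shRNA 2), against 70.4 CPM in the control. ATR, the kinase of replication stress, stood at 53.3 CPM (label shRNA 1) and 28.4 CPM (label shRNA 2), against 30 CPM in the control. ATM, the kinase of double-strand breaks, stood at 27.9 CPM (label shRNA 1) and 30 CPM (label shRNA 2), against 23.6 CPM in the control, and RCHY1, a ubiquitin ligase for p53, at 12.6 CPM (label shRNA 1) and 10.3 CPM (label shRNA 2), against 8.85 CPM in the control, both above the control with both labels.

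**Figure D4:**
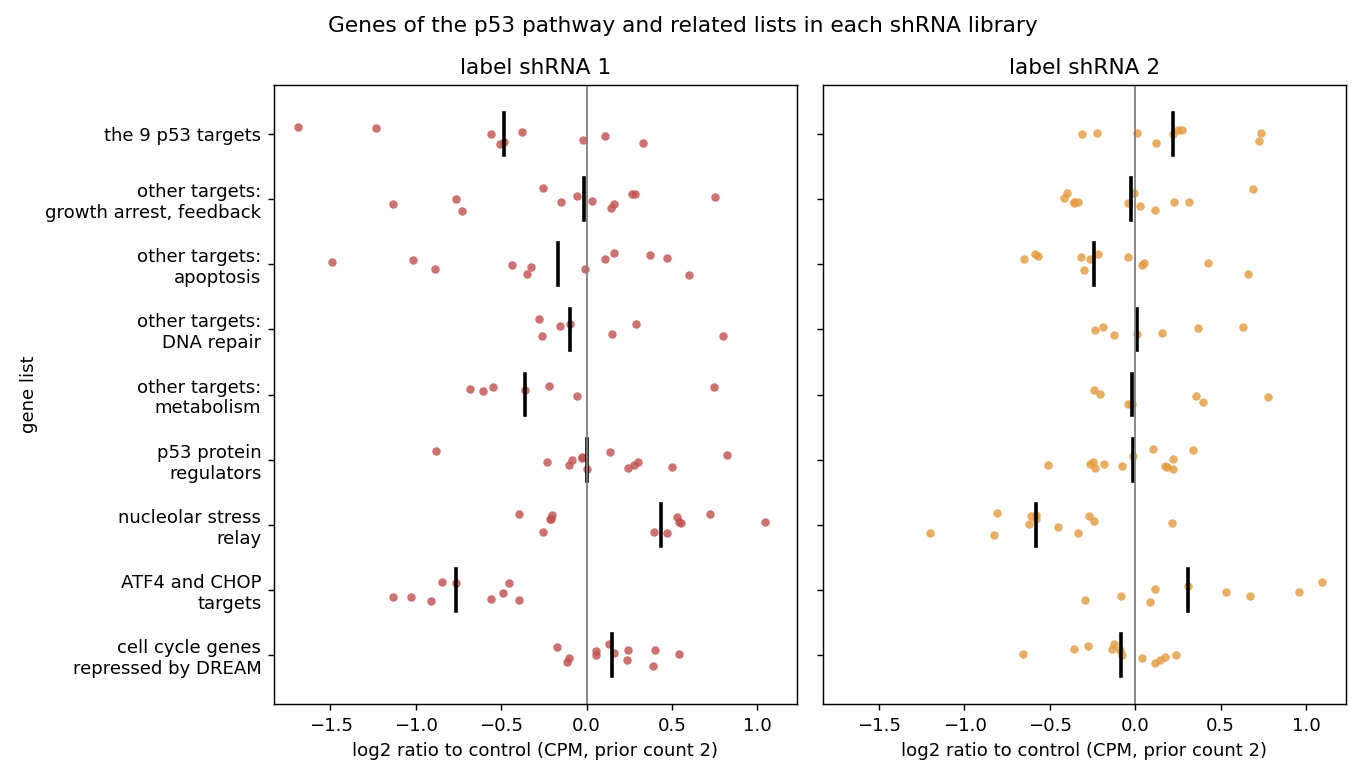
Log2 ratio to the control of each measured gene (points) in 9 lists, for the libraries labelled shRNA 1 (left) and shRNA 2 (right). Black bars are medians. The ATF4 and CHOP targets have medians of -0.76 (left) and 0.31 (right), and the nucleolar stress relay has medians of 0.44 (left) and -0.58 (right).

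The genes that carry nucleolar stress to MDM2 and p53 differed between the shRNA libraries in the other direction from the 9 targets. Of 12 genes, 11 were higher with the label shRNA 1 than with the label shRNA 2, against 50.1% of all genes tested. With both labels 0 were above the control and 4 below. The 4 were the ribosomal protein genes RPL5, RPL11, RPL23 and RPS7. The remaining ribosomal protein gene of the list, RPL26, is named here because it differed from these 4. It stood at 25.7 CPM (label shRNA 1) and 9.95 CPM (label shRNA 2), against 17.5 CPM in the control. RPL5 stood at 984 CPM (label shRNA 1) and 856 CPM (label shRNA 2), against 1174 CPM in the control, and RPL11, named here for its role, at 430 CPM (label shRNA 1) and 421 CPM (label shRNA 2), against 497 CPM in the control. RRS1, which helps load the 5S particle into the ribosome, stood at 73.5 CPM with the label shRNA 1 and 23.7 CPM with the label shRNA 2, against 35.5 CPM in the control. MYBBP1A, a nucleolar protein that binds p53, was singled out after its values were seen as the 1 gene of the list at least 2-fold below the control with the label shRNA 2. It stood at 129 CPM (label shRNA 1) and 38.2 CPM (label shRNA 2), against 88.1 CPM in the control. None of these passed by edgeR. Counts of ribosomal protein genes are uncertain because many processed copies exist in the genome.

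Cell cycle genes that p21 represses through the DREAM complex when p53 is active lay on both sides of the control. Of 12, 4 were above it with both labels and 2 below, beside 28.2% and 27% of all genes tested. Their median log2 ratios were 0.15 (label shRNA 1) and -0.08 (label shRNA 2). Of the 12, 10 were higher with the label shRNA 1 than with the label shRNA 2 (median difference 0.26 on the log2 scale). This was so for 50.1% of all genes tested, and was the other direction from the 9 targets. CDC20, an activator of the anaphase-promoting complex, stood at 413.5 CPM (label shRNA 1) and 269.5 CPM (label shRNA 2), against 283.8 CPM in the control. MYBL2 stood at 163 CPM (label shRNA 1) and 111 CPM (label shRNA 2), against 175 CPM in the control, and PLK1 at 222 CPM (label shRNA 1) and 198 CPM (label shRNA 2), against 168 CPM in the control. BUB1, a spindle checkpoint kinase, stood at 167 CPM (label shRNA 1) and 144 CPM (label shRNA 2), against 128 CPM in the control.

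The integrated stress response, acting through the transcription factors ATF4 and CHOP, is also known to induce GDF15 and TNFRSF10B. Its genes differed between the shRNA libraries in the same direction as the 9 targets. Of 9 genes, all 9 were below the control with the label shRNA 1, against 48.5% of genes tested, and 7 were above it with the label shRNA 2, against 49.7%. SESN2 is counted both here and among the p53 targets in growth arrest and feedback, so these lists are not separate. ASNS, asparagine synthetase, stood at 79 CPM with the label shRNA 1 and 276.5 CPM with the label shRNA 2, against 142 CPM in the control. TRIB3, a pseudokinase induced by CHOP, stood at 67 CPM (label shRNA 1) and 188 CPM (label shRNA 2), against 88.2 CPM in the control. DDIT4, an inhibitor of mTOR signalling, stood at 239.5 CPM (label shRNA 1) and 497.6 CPM (label shRNA 2), against 526.5 CPM in the control, and ATF3, a transcription factor of the same response, at 49.4 CPM (label shRNA 1) and 76 CPM (label shRNA 2), against 93.1 CPM in the control. GDF15 differed more between the shRNA libraries than any of these 4, whose ratios of label shRNA 1 to label shRNA 2 were 0.286 for ASNS, 0.356 for TRIB3, 0.481 for DDIT4 and 0.651 for ATF3. None passed by edgeR, and the part of this response in the level of GDF15 was not tested.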

How the data were processed

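The deposited table holds raw read counts per gene for 3 libraries, which the authors made with featureCounts 1.6.4 (strand option 1) and an annotation of hg38, per the file headers. The submitters' processing notes differ, naming TopHat2, HTSeq and hg19. No source used here names the library kit. Gene names matched 56558 of 60554 identifiers.

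The software was edgeR 4.0.16, DESeq2 1.42.0 and limma 3.58.1 under R 4.3.3, with scipy 1.17.1 for intervals at 95%. Genes passing filterByExpr were scaled by TMM. The 2 shRNA libraries were set against the control in a two-sided quasi-likelihood test of edgeR, adjusted after Benjamini and Hochberg across every gene tested. The SE is the absolute log2 fold change over the square root of F. Ratios of single libraries have exact conditional intervals and no test, and log2 ratios have a prior count of 2 added. A count of 0 is given a limit of 3 counts. All intervals cover counting error only. P-values weigh the difference of the pair from the control against an estimated spread. Only the 2 shRNA libraries, which carry different shRNAs, supply replicate spread, and part of it may be technical.

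The 9 genes and all lists were chosen with earlier results of these data known. Named are the 9 genes, TP63, TP73, SNORD12B, per list up to 4 genes of 1 CPM or more ranked by absolute log2 fold change, and the 3 genes nearest to CDKN1A. Others are marked where they appear, and 1 further gene is not reported here. The test was checked on simulated data with changes of more than 2-fold that were equal in both shRNA libraries. That check does not bear on smaller changes or on opposite ones, such as those of the targets. Alternatives covered scaling, library size, filters, the test, the prior count, the fold threshold and leaving out each shRNA line.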

Additional observations from a re-analysis of the deposited data

How the results depend on the processing

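Each of the 9 targets kept the direction of its log2 fold change and its side of the threshold under the 8 other scalings, filters and tests, with adjusted p between 0.9997 and 1. Limma-voom moved the log2 fold change of GDF15 to -0.45 and that of CDKN1A to -0.11, over 1.5 times the edgeR values of -0.02 and -0.06. Over all genes, no filter beyond a count above 0 gave 4 higher and 37 lower, DESeq2 gave 1 and 14, edgeR's likelihood ratio test 2 and 36, limma-voom 1 lower and total counts without composition factors 1 lower. Each scaling or test moved the median of all genes by at most 0.0249 (log2). At 1.5-fold in place of 2-fold, 1931 genes were higher and 2257 lower with the label shRNA 1, and 1670 and 1765 with the label shRNA 2. TP53I3 and GDF15 were then the 2 targets higher with the label shRNA 2. Under other prior counts and DESeq2 size factors, the list medians stayed within the spread between the shRNA libraries, and all 54 log2 ratios of the targets stayed within their counting intervals. Leaving out 1 shRNA line leaves 1 library against 1, a value with no test. It turns the direction for CDKN1A, GDF15, FDXR and BTG2 (shRNA 1 left out) and for MDM2 (shRNA 2 left out), as the ratios of single libraries show. No paired analysis was possible, because there was 1 control library and the numbers of the shRNA libraries name different shRNAs. Across the libraries depth limits TP53I3 and FAS most, with 134 to 272 counts per library. With the label shRNA 1 alone, BTG2 and GDF15 also had few counts, at 168 and 208.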
